A study of Mus musculus with 3 samples.

Results

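The genes described here are 10 transcription factors that set and maintain the identity of heart muscle, the zinc finger factors Gata4 and Gata6, the homeodomain factor Nkx2-5, the T-box factors Tbx5 and Tbx20, the MADS-box factors Mef2a, Mef2c, Mef2d and Srf, and the basic helix-loop-helix factor Hand2. They were chosen by gene name, and all 10 were found among the 56748 genes of the count table. RNA was sequenced from wild-type (WT) adult mouse cardiomyocytes (ACMs), which the study isolated from ventricles of mice aged 8 to 10 weeks by enzymatic digestion and plated on laminin. The cells were kept in serum-free M199 medium with BDM, which blocks contraction, and with 0.1% BSA in every condition, and were treated for 16 h. The treatments were vehicle (0.1% BSA), 10 ng/mL mouse oncostatin-M (OSM), or 10 ng/mL human interleukin-6 (IL-6), both of them cytokines that signal through the receptor subunit gp130 and JAK kinases. RNA samples were pooled before sequencing, so each condition is 1 library, and the spread between animals or cultures is not measured. The study's question was which genes respond in ACMs when OSM activates JAK1, and here it is asked of the factors that define the cell.

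As background, these factors bind each other and shared enhancers in front of genes for sarcomere proteins, ion channels and natriuretic peptides. Gata4, Nkx2-5 and Tbx5 form the core of the network in the developing heart, Tbx20 and Hand2 act in chamber formation, and the MEF2 proteins and SRF couple muscle gene expression to calcium, kinase and actin signals. In the adult heart most of them stay on, and several are needed to keep cardiomyocyte gene expression and rhythm.

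In the OSM library, Mef2c and Tbx20 were lower than in the vehicle library by more than 2-fold, and Mef2a and Gata4 were lower by less than that. Srf, Nkx2-5 and Hand2 were slightly higher. With IL-6 no factor differed from vehicle by 2-fold, and Hand2 had the widest difference. The 3 factors with the longest genes, counted in exon bases, were the 3 lowest against vehicle, and fold change fell with length over protein-coding genes as well. Values less this trend are given with the results below.

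The libraries held 24939980 counts with vehicle, 26362446 with IL-6 and 30773001 with OSM, of which the 10 factors took 21101, 22770 and 19692 counts. Cardiomyocyte markers such as Myh6 and Tnnt2 summed to 10721 FPKM with vehicle, 11123 with IL-6 and 14567 with OSM over 9 genes. Past counting error, a rule well-counted genes pass more easily, 5 were higher and 4 lower with OSM, against 33.1% and 33.4% of all genes. By the call rule given below 0 were higher and 2, Ryr2 and Ttn, lower, against 3.7% and 5.46% of all genes. With either length trend given below removed, 0 were called lower. FPKM is the authors' level of a gene, its count divided by gene length and by the size of the library. The 8 fibroblast markers summed to 0.860 FPKM with vehicle, 0.770 with IL-6 and 1.08 with OSM, and Col1a1, Tcf21 and Postn were at 0 with OSM. Of 5 compared between OSM and vehicle, 1 was higher past counting error and 0 lower, against the same shares of all genes. The 8 endothelial markers lay between 7.13 and 7.72 FPKM. The 8 macrophage markers summed to 13.8 FPKM with vehicle and 39.9 with OSM, nearly all of it Cd68. Ptprc, C1qa and Fcgr1 were at 0 in all 3 libraries. Of the 5 compared between OSM and vehicle, 2 were higher past counting error and 0 lower, against the same shares of all genes. Cd68 was called higher, and with either length trend removed 0 were. The 8 smooth muscle and pericyte markers lay between 13.6 and 16.1 FPKM, most of it Acta2, with Tagln at 0, 5 and 1 counts. The 5 epicardial markers summed to 0.245, 0.811 and 1.20 FPKM with vehicle, IL-6 and OSM, and the 4 atrial markers, Nppa among them, to 42.3, 45.5 and 66.6 FPKM. The part of these shifts in the results below was not tested. In pooled RNA a smaller share of cells and less RNA per cell cannot be told apart.

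Promoters of 7 of the 10 factors were found in the RefSeq table of start sites (GRCm38.p6), 9 promoters in all because Mef2c has 3. Those of Gata4, Gata6 and Tbx5 were not matched. Each spans 250 bases before to 50 bases after the start and is written 5′ to 3′ on the strand of the gene. Capitals mark motif matches. Sequences are shown for Srf, which was higher with OSM and carries boxes for its own protein. Those of Mef2a and Mef2c, which were lower and carry a MEF2 site and a STAT-type motif, are also shown. So are those of Tbx20 and Nkx2-5, which hold no match and moved in opposite directions as measured. Less the length trends given below, Nkx2-5 was at -0.09 and -0.14, so the opposite direction did not hold.
Srf promoter: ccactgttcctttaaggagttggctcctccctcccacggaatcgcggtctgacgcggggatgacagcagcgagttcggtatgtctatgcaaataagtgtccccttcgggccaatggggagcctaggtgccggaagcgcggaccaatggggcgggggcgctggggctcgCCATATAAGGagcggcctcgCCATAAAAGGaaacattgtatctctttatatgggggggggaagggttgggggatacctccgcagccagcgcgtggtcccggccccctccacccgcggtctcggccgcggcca
Mef2a promoter: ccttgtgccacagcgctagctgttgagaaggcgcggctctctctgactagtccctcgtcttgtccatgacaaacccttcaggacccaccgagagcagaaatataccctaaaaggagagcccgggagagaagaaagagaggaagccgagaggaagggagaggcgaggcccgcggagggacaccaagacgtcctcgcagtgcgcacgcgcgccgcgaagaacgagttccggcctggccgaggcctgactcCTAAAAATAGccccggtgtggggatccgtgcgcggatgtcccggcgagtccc
Mef2c promoter 1: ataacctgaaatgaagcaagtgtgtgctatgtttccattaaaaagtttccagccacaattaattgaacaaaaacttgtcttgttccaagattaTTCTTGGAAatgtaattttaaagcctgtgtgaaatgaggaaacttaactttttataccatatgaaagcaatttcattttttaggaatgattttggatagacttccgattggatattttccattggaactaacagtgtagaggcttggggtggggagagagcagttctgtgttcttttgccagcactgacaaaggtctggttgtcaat
Tbx20 promoter: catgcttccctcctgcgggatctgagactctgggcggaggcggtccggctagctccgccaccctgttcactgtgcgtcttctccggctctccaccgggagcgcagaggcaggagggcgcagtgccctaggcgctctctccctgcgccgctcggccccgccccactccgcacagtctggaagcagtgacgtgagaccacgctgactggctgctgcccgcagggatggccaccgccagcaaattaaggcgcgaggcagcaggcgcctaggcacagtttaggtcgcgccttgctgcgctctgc
Nkx2-5 promoter: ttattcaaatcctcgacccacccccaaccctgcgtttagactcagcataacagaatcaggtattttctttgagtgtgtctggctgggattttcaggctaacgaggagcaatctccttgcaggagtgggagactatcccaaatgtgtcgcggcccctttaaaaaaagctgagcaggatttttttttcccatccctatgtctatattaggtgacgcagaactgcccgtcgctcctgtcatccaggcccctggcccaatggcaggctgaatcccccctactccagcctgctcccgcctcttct
The Srf promoter, at chr17:46556113-46556412 on the minus strand, holds 2 CArG boxes, the sites that SRF binds, CCATATAAGG at position -82 and CCATAAAAGG at position -62 from the start. CArG boxes are in 1.63% of the 32851 mouse promoters of this length. The Mef2a promoter, at chr7:67372809-67373108 on the minus strand, holds 1 MEF2 site (CTAAAAATAG) at position -2 across the start, and 3.19% of promoters hold such a site. The first Mef2c promoter, at chr13:83503784-83504083 on the plus strand, holds TTCTTGGAA, a match to TTCNNNGAA, the GAS motif of STAT proteins, at position -157. This motif is in 8.30% of promoters. The Tbx20 promoter lies at chr9:24774254-24774553 and the Nkx2-5 promoter at chr17:26841516-26841815, both on the minus strand. The third Mef2c promoter holds CATCTG, an E-box that bHLH factors bind, and the Hand2 promoter holds an E-box and a GATA motif (AGATAA). Those motifs are in 17.2% and 11.2% of promoters. The Nkx2-5 motif TCAAGTG, in 3.06% of promoters, and the T-box motif AGGTGTGA, in 1.28%, were in none of the 9. The search read both strands, no 2 matches overlapped, and a promoter without a match says only that these letters are not in its 300 bases.

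With vehicle, the level of the factors spanned 19.7-fold. Nkx2-5 stood first at 39.3 FPKM, followed by Srf at 36.8 and Mef2d at 35.8, and neighbours among these 3 had overlapping 95% Poisson intervals of the count. Gata4 followed at 27.8 FPKM and Mef2a at 12.0. Hand2 at 5.60 and Tbx20 at 5.25 FPKM overlapped. Gata6 had 3.91, Mef2c 3.14 and Tbx5 2.00 FPKM, each apart from its neighbours. Nkx2-5 was higher than 94.3% of the 18537 genes detected with vehicle, and Tbx5, the lowest, was higher than 54.2%. With IL-6 the span was 16.3-fold, and the order was the same but for Mef2d and Srf, which changed places within their intervals. With OSM the span was 38.3-fold, from Nkx2-5 at 48.7 FPKM to Mef2c at 1.27 FPKM. Mef2a moved from the fifth to the sixth place, below Hand2, with which its interval overlapped. Tbx20 and Gata6 changed places, and Mef2c moved from the ninth to the last.

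**Figure D1:**
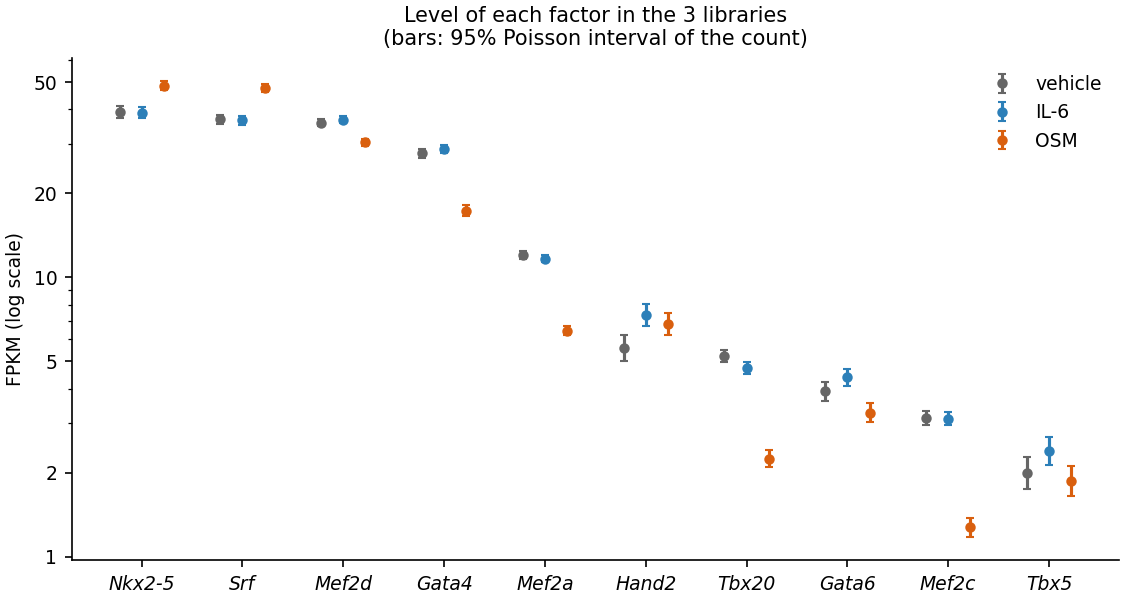
FPKM of each factor on a log scale with vehicle (grey), IL-6 (blue) and OSM (orange), 1 library each, with bars for the 95% Poisson interval of the count. IL-6 points lie near the vehicle points, while with OSM Tbx20 sits at 2.24 and Mef2c at 1.27 FPKM, below their vehicle levels of 5.25 and 3.14 FPKM.

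The order within the list depends on the length by which a count is divided. The authors' gene length joins all exons, and it is 14681 bases for Mef2a and 15715 for Mef2c, whose longest annotated transcripts have 5904 and 7167 bases. Divided by the longest transcript, Mef2a had 29.9 FPKM with vehicle, 29.1 with IL-6 and 16.0 with OSM, and Mef2c had 6.89, 6.85 and 2.79. Mef2a was then the third highest factor with vehicle and Srf, at 25.8 FPKM, the fourth. Nkx2-5 stayed first and Tbx5 last in vehicle. Differences between libraries do not depend on this length.

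Differences are given as log2 fold changes of counts, after the library sizes were scaled by TMM, with a 95% Clopper-Pearson interval. The interval covers counting error only, since no condition has a replicate library. Reads were amplified by PCR and carry no identifier of the molecule they came from. The interval does not allow for reads copied from the same molecule. Genes were called if no bound of the interval was within 2-fold, and were past counting error if the interval left out no change. There is no test across replicates, and each value compares libraries. Of 15537 genes compared between OSM and vehicle, 3.7% were called higher and 5.46% lower. Among the 10 factors 0 were called higher and 2 lower, Mef2c and Tbx20. Past counting error were 3 factors higher and 6 lower, where over all genes 33.1% were higher and 33.4% lower. Well-counted genes pass this rule more easily, and the shares of all genes here and below were not matched for counts. With intervals widened for an assumed biological coefficient of variation of 0.2 in each library, 0 of the factors were called and 3 were lower past the interval, Tbx20, Mef2a and Mef2c. The share of all genes with widened intervals was not computed. The median of the factors was -0.25, and the median of all genes was -0.00.

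Between IL-6 and vehicle, 1.77% of 15472 genes were called higher and 1.74% lower, and 0 factors in either direction. Past counting error were 3 factors higher, Hand2, Tbx5 and Gata6, and 1 lower, Tbx20, against 19.6% and 19.1% of all genes. Between OSM and IL-6, 4.24% of 15544 genes were called higher and 5.44% lower, against 0 factors higher and 1 lower, Mef2c. Past counting error were 2 factors higher and 7 lower, against 33.2% of genes in each direction. The vehicle library enters the first 2 comparisons and the OSM library enters the first and the last, so they are not independent of each other.

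**Figure D2:**
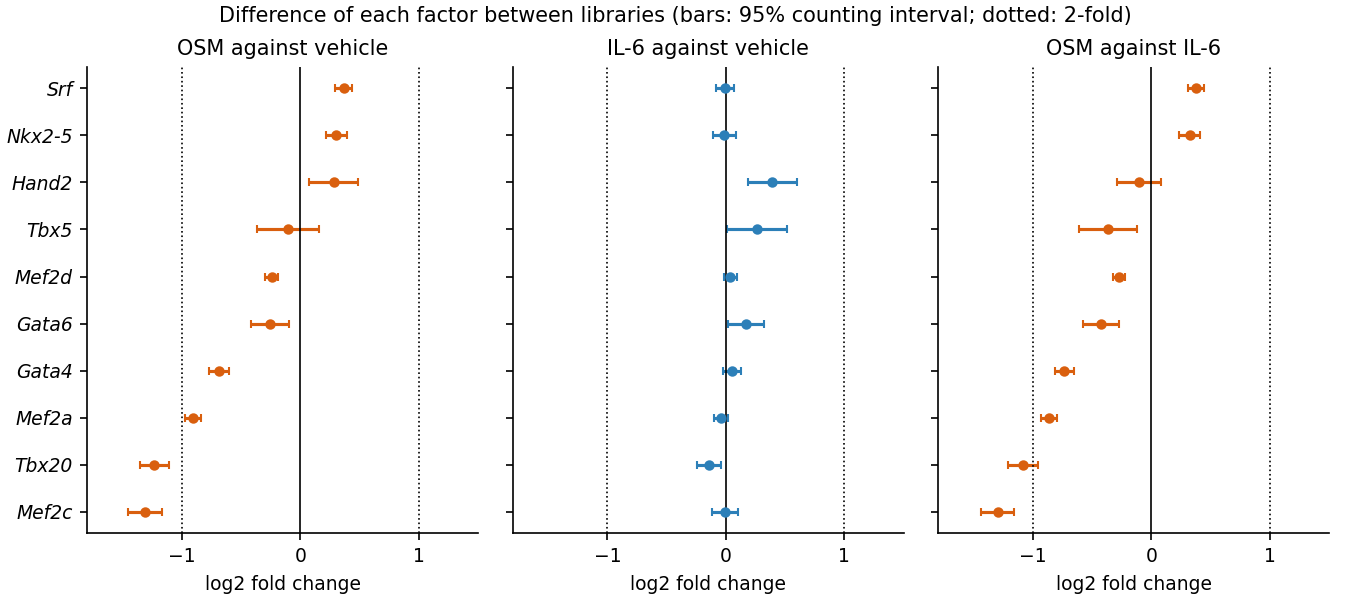
Log2 fold change of each factor for OSM against vehicle, IL-6 against vehicle and OSM against IL-6, with bars for the 95% counting interval and dotted lines at 2-fold. With OSM the factors run from -1.31 for Mef2c to 0.36 for Srf against vehicle, while against IL-6 only the bar of Mef2c lies wholly beyond the dotted line.

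Tbx20, Mef2a and Mef2c, the 3 lowest factors with OSM, have the longest genes, while Gata4, the next, does not. Over 9444 protein-coding genes with a mean of at least 100 counts, the fold change between OSM and vehicle fell with gene length (Spearman's rho -0.52, a description across genes, which share their libraries). In eighths of these genes by length, the median fold change went from 0.47 in the shortest to -0.56 in the longest. For OSM against IL-6 rho was -0.51, and for IL-6 against vehicle it was -0.07. The part that this relation has in the results on single factors was not tested, and the values are set side by side instead. For each factor the lowess trend of fold change on length was subtracted, once with the authors' gene length and once with the length of the longest annotated transcript. Against genes of their own eighth by gene length, 7 of the 10 factors lay between the lower and the upper quartile, and Gata4, Tbx20 and Mef2c lay below the lower quartile.

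**Figure D3:**
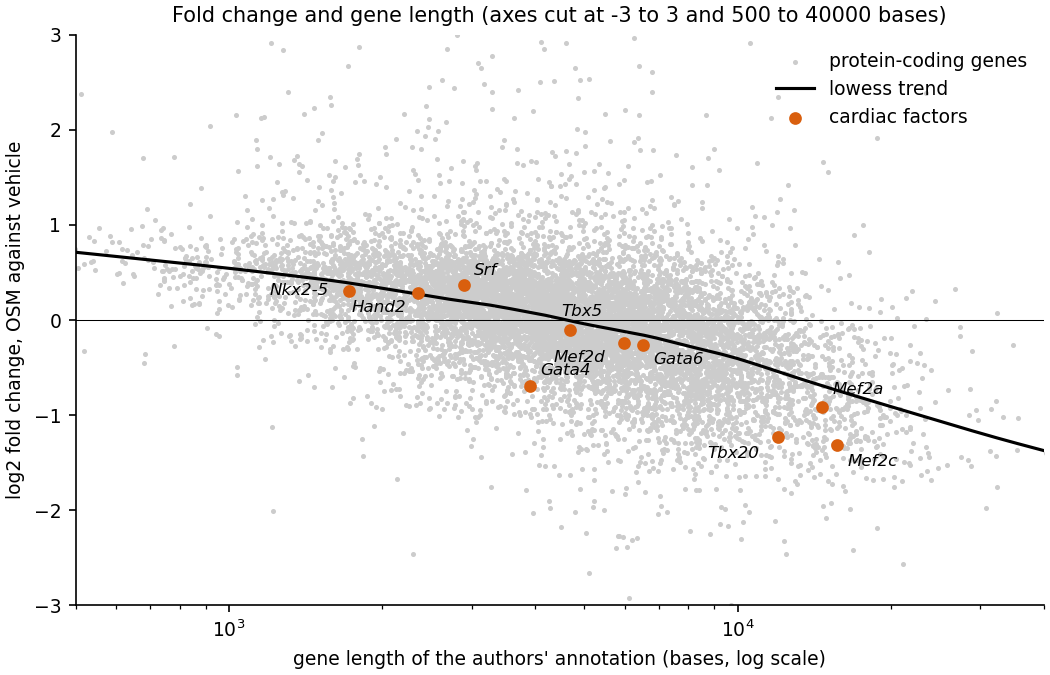
Log2 fold change between OSM and vehicle against gene length on a log scale for protein-coding genes (grey), with the lowess trend (black line) and the 10 factors (orange). Gata4, Tbx20 and Mef2c sit farthest below the trend. Srf sits above it and Hand2 lies on it. The other factors sit below it by less, Mef2a farthest among them at -0.22.

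Gata4 (ENSMUSG00000021944, chr14:63436371-63509141 on the minus strand of GRCm39) encodes a zinc finger factor that binds GATA motifs in front of natriuretic peptide and sarcomere genes. It had 2750 counts with vehicle, 3050 with IL-6 and 2022 with OSM, or 27.8, 28.8 and 17.3 FPKM. The OSM library was the low one. The fold change of OSM against vehicle was -0.69 (95% interval -0.77 to -0.61), that of IL-6 against vehicle 0.05 (-0.02 to 0.12), and that of OSM against IL-6 -0.74. Genes of its eighth by length had a median of 0.06 and a lower quartile of -0.25, above the value of Gata4. It was -0.77 less the trend on gene length and -0.67 less the trend on transcript length.

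Gata6 (ENSMUSG00000005836, on chromosome 18) encodes the other GATA factor of adult heart muscle. It had 643 counts with vehicle, 775 with IL-6 and 637 with OSM, or 3.91, 4.39 and 3.28 FPKM. The OSM value was the lowest, at -0.26 (-0.42 to -0.10) against vehicle, and the IL-6 value the highest, at 0.17 (0.02 to 0.32). Less the trend on gene length, OSM against vehicle was -0.10. The ratio of Gata6 to Gata4, which needs no scaling of the libraries, was higher with OSM than with vehicle by 0.43 on the log2 scale (0.25 to 0.61), or 0.67 less the trend on gene length and 0.50 less that on transcript length. With IL-6 the difference was 0.12 (-0.05 to 0.29). An antisense gene, Gata6os, shares 12.5% of the exon bases of Gata6 and had 51, 69 and 34 counts. Whether the counting used the strand is not given in the sources used here, so the reads of such pairs are uncertain.

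Nkx2-5 (ENSMUSG00000015579, chr17:27057638-27063983, minus strand) encodes the homeodomain factor that partners with GATA4 and TBX5 and maintains the conduction system. It had 1707 counts with vehicle, 1812 with IL-6 and 2501 with OSM, or 39.3, 38.9 and 48.7 FPKM. The OSM library was above the other two, by 0.30 (0.21 to 0.39) over vehicle and 0.32 over IL-6, while IL-6 against vehicle was -0.01. Nkx2-5 has the shortest gene of the list, and genes of its eighth had a median of 0.47. Less the trend on gene length its fold change was -0.09 and less the trend on transcript length -0.14, so the direction turned.

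Tbx5 (ENSMUSG00000018263, chr5:119970733-120023284, plus strand), a T-box factor of atrial identity and conduction, was the lowest of the factors with vehicle. It had 236 counts with vehicle, 303 with IL-6 and 260 with OSM, or 2.00, 2.39 and 1.86 FPKM. At this depth OSM and vehicle could not be told apart (-0.11, interval -0.37 to 0.15, and -0.10 less the trend on gene length). IL-6 against vehicle was 0.26 (0.01 to 0.51) and OSM against IL-6 -0.36. The overlapping gene Gm43050 had 97, 105 and 86 counts.

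Tbx20 (ENSMUSG00000031965, chr9:24629434-24685599, minus strand) encodes the T-box factor that keeps contractile and ion channel genes on in the adult ventricle. It had 1592 counts with vehicle, 1543 with IL-6 and 804 with OSM, or 5.25, 4.75 and 2.24 FPKM. The OSM library was apart from the other two. Tbx20 was lower with OSM than with vehicle by more than 2-fold at -1.23 (-1.36 to -1.11), and at -1.08 (-1.21 to -0.96) against IL-6, where the interval reached within 2-fold. IL-6 against vehicle was -0.14 (-0.25 to -0.04). Its eighth of longest genes had a median of -0.56 and a lower quartile of -0.97. Less the trend, OSM against vehicle was -0.69 on gene length and -0.67 on transcript length. In the same order OSM against IL-6 was -0.57 and -0.55. The ratio of Tbx20 to Tbx5 was 2.63 in FPKM with vehicle, 1.98 with IL-6 and 1.21 with OSM, and the log2 ratio differed from vehicle by -1.13 (-1.41 to -0.84) with OSM and by -0.41 (-0.67 to -0.14) with IL-6. Less the trend, the OSM difference was -0.59 on gene length and -0.51 on transcript length.

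The MEF2 proteins are MADS-box factors held inactive by class II histone deacetylases until kinases release them. Mef2d (ENSMUSG00000001419, chr3:88049679-88079393, plus strand), the most abundant, had 5427 counts with vehicle, 5969 with IL-6 and 5447 with OSM, or 35.8, 36.8 and 30.5 FPKM. Its fold change with OSM was -0.24 (-0.30 to -0.19), and -0.12 less the trend on gene length, -0.04 less that on transcript length. IL-6 against vehicle was 0.04. The overlapping genes 1700113A16Rik and Gm56779 had at most 14 counts in a library.

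Mef2a (ENSMUSG00000030557, chr7:66880911-67022606, minus strand), which has roles in the mitochondria and conduction of the adult heart, had 4469 counts with vehicle, 4651 with IL-6 and 2825 with OSM, or 12.0, 11.7 and 6.44 FPKM. It was lower with OSM at -0.91 (-0.98 to -0.84), just inside 2-fold, and IL-6 against vehicle was -0.04. The 2 lengths gave different values here, and its fold change was -0.22 less the trend on the 14681-base gene length but -0.72 less that on its 5904-base longest transcript. Lysmd4 lies antisense and shares 6.97% of its exon bases, with 327, 558 and 389 counts.

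Mef2c (ENSMUSG00000005583, chr13:83652153-83815199, plus strand), the MEF2 gene that is essential in the embryonic heart, had 1249 counts with vehicle, 1330 with IL-6 and 597 with OSM, or 3.14, 3.12 and 1.27 FPKM. The OSM value was below the other 2, whose intervals overlapped. Mef2c was lower by more than 2-fold in both OSM comparisons, at -1.31 (-1.46 to -1.17) against vehicle and -1.30 (-1.44 to -1.16) against IL-6. This was the largest decrease among the factors against vehicle as measured and less the trend on transcript length, but not less that on gene length. IL-6 against vehicle was -0.01. Less the trend, OSM against vehicle was -0.57 on gene length and -0.97 on transcript length. In the same order OSM against IL-6 was -0.60 and -0.98.

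Within the family, Mef2d made up 68.9% of the summed FPKM of Mef2a, Mef2b, Mef2c and Mef2d with vehicle, 70.5% with IL-6 and 77.5% with OSM. The share of Mef2a was 23.1%, 22.4% and 16.4%, and that of Mef2c 6.03%, 5.98% and 3.24%. Mef2b, with 37, 23 and 47 counts, held at most 2.85%. These shares use the authors' gene lengths. The log2 ratio of Mef2d to Mef2a was higher with OSM by 0.67 (0.58 to 0.75), and the length used decides how much of this is left, 0.09 less the trend on gene length and 0.68 less that on transcript length. The ratio of Mef2c to Mef2a differed by -0.40 (-0.56 to -0.25), or by -0.35 and -0.26 less the same trends. With IL-6 these differences were 0.08 (0.00 to 0.16) and 0.03 (-0.09 to 0.16).

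**Figure D4:**
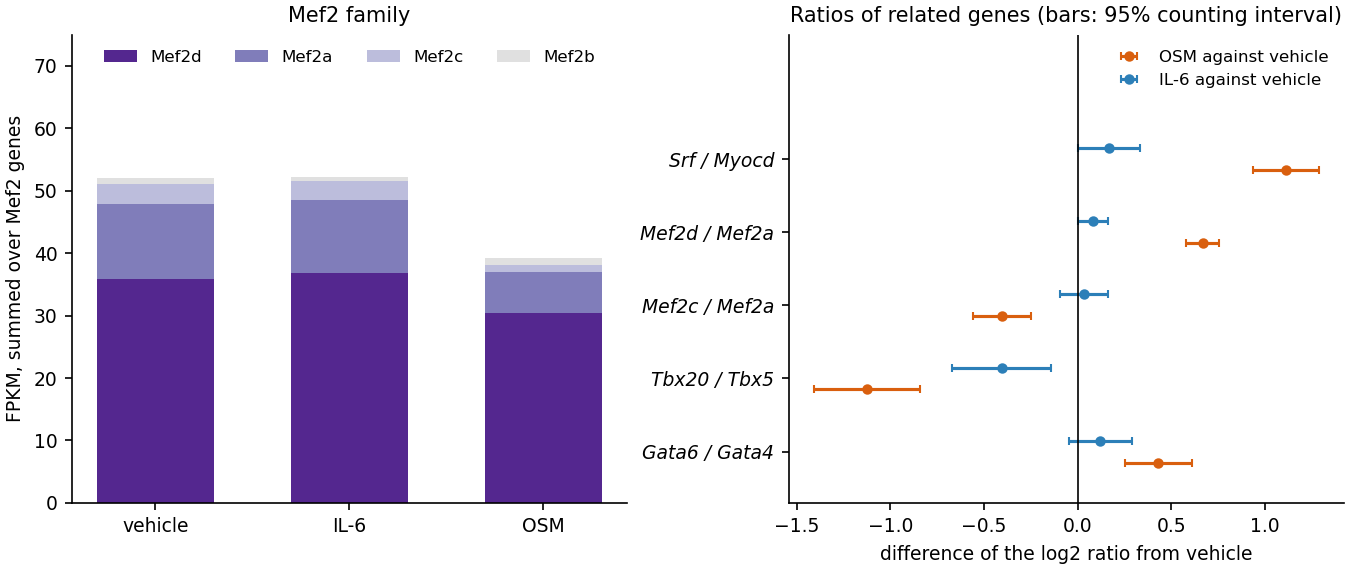
Left, FPKM of the Mef2 genes stacked for each library, the sum falling from 52.1 with vehicle to 39.3 with OSM. Right, difference of the log2 ratio of related genes from vehicle for OSM (orange) and IL-6 (blue), with bars for the 95% counting interval, where Tbx20 to Tbx5 lies lowest and Srf to Myocd highest.

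Hand2 (ENSMUSG00000038193, chr8:57774018-57777668, plus strand) encodes a basic helix-loop-helix factor of the right ventricle and of sympathetic neurons. It had 333 counts with vehicle, 468 with IL-6 and 480 with OSM, or 5.60, 7.35 and 6.84 FPKM. Both cytokine libraries were above vehicle, by 0.39 (0.19 to 0.60) with IL-6 and by 0.28 (0.08 to 0.49) with OSM, and OSM against IL-6 was -0.11 (-0.29 to 0.08). Less the trend on gene length, OSM against vehicle was 0.01. The antisense genes Hand2os1, with 388, 458 and 414 counts, and Gm34030, with 35, 27 and 75, share 19.8% and 8.49% of its exon bases, and reads from shared exon bases of such partners cannot be told apart without strand.

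Srf (ENSMUSG00000015605, chr17:46859255-46867101, minus strand) encodes the MADS-box factor that binds CArG boxes and drives both contractile and early response genes, depending on its partner. It had 2695 counts with vehicle, 2869 with IL-6 and 4119 with OSM, or 36.8, 36.6 and 47.7 FPKM. The OSM library was above the others by 0.36 (0.29 to 0.44) and 0.38 (0.31 to 0.45), with IL-6 against vehicle at -0.01. It was the only factor still higher than vehicle past counting error after either trend was removed, at 0.17 on gene length and 0.30 on transcript length. The log2 ratio of Srf to its heart muscle partner Myocd was higher with OSM by 1.11 (0.94 to 1.29), or 0.76 and 0.95 less the trends on gene and transcript length, and with IL-6 by 0.17 (0.00 to 0.33).

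Most paralogs of the factors had few or no counts. Of 26 listed, 25 were in the table, 12 of them at 0 in all 3 libraries, where a count of 0 allows up to 3 counts or 0.12 CPM with vehicle. Tbx15 and Mef2b were the ones with at least 1 FPKM in a library. Tbx15 had 442, 555 and 324 counts with vehicle, IL-6 and OSM, or 4.66, 5.47 and 2.90 FPKM, with vehicle above Gata6, Mef2c and Tbx5. Its fold change with OSM was -0.70 (-0.91 to -0.49), and -0.79 less the trend on gene length. Of 8 paralogs compared between OSM and vehicle, 0 were called, against 3.7% of all genes called higher and 5.46% lower.

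Partners and regulators of the factors were listed next, 25 genes, of which 1 was called higher with OSM and 3 lower, where 3.7% and 5.46% of all genes were, with a median of -0.19. Hdac7, a class II histone deacetylase that represses MEF2, rose from 247 counts with vehicle and 267 with IL-6 to 808 with OSM, at 1.46 (1.25 to 1.67). Zfpm2, the FOG2 partner of GATA4, fell from 485 and 439 counts to 208, at -1.47 (-1.71 to -1.23). The acetyltransferase Ep300, at 2028, 2262 and 917 counts, fell by 1.39 on the log2 scale, and Ncoa2, at 2154, 2032 and 834, by 1.62. These values less the trend on gene length were 1.64, -1.09, -0.72 and -0.88 in the same order, and 0 of the 3 were still called lower. With that on transcript length 1 was, Ncoa2. The other listed class II histone deacetylases, Hdac5, Hdac4 and Hdac9, did not share 1 direction, at 0.62, -0.19 and -1.05 with OSM against vehicle. None of them was called, and less the trend on gene length they were 0.94, 0.55 and -0.35. Myocd, the partner of SRF, had 756, 716 and 535 counts and a fold change of -0.75 (-0.91 to -0.58), and -0.60 less the trend on gene length. With IL-6, 0 of the 25 were called, against 1.77% of all genes called higher and 1.74% lower.

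Of 38 other transcriptional regulators of heart muscle, 34 were compared between OSM and vehicle, with 2 called higher and 3 lower, against 3.7% and 5.46% of all genes, and a median of -0.26, or -0.20 with genes at 0 counts set to their bound. The 3 called lower were Esrrg, Ppargc1a and Ppara, and they stayed so with either trend removed. Their relatives Esrra and Ppargc1b, at -0.05 (-0.12 to 0.02) and -0.25 (-0.62 to 0.12), were not past counting error. Another relative, Esrrb, was lower past counting error but not called, at -0.27 (-0.51 to -0.04). Esrrg, an orphan nuclear receptor, had 1278 counts with vehicle, 1402 with IL-6 and 306 with OSM, at -2.31 (-2.49 to -2.13). Ppargc1a, a coactivator of mitochondrial genes, had 1035, 937 and 351 counts, at -1.81 (-1.99 to -1.63), and Ppara, a fatty acid receptor, had 300, 307 and 103, at -1.79 (-2.13 to -1.46). Less the trend on gene length they were -2.17, -1.64 and -1.88. Ankrd1, a stress-responsive cofactor of the sarcomere and nucleus, rose from 56823 and 61397 counts to 148021, at 1.13 (1.12 to 1.15), but was inside 2-fold less the trend, at 0.94 on gene length and 0.78 on transcript length. Tead2 had 0 counts with vehicle, 12 with IL-6 and 15 with OSM, at least 4.21-fold higher with OSM against a floor of 3 counts. Tead2 was also called higher with IL-6 against vehicle.

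The heart muscle targets of the factors did not move in 1 direction. Of 29 listed and compared between OSM and vehicle, 1 was called higher and 4 lower, against 3.7% and 5.46% of all genes, and the median was 0.14. Past counting error were 16 higher and 12 lower, against 33.1% and 33.4%. The targets had a median of 16278 counts with vehicle, and genes of such depth pass this rule more easily than all genes do. Nppb, the B-type natriuretic peptide and a target of GATA4, rose from 3193 counts with vehicle and 3618 with IL-6 to 12399 with OSM, at 1.71 (1.65 to 1.77). Gja1, the main gap junction protein of the ventricle, fell from 9722 and 9621 to 2648 counts, at -2.12 (-2.19 to -2.06), and -1.70 less the trend on gene length. Ttn, Ryr2 and Cacna1c, which encode the giant sarcomere protein titin, the calcium release channel and a calcium channel subunit, also fell, by 1.64, 1.53 and 1.14 on the log2 scale. Less the trend on gene length they were 0.37, -0.37 and -0.17, so the sign of Ttn turned. Among the sarcomere genes with short transcripts, Myl3, Tnni3 and Tnnc1 had 0.72, 0.68 and 0.66, and less the trend on gene length 0.39, 0.35 and 0.12. With either trend removed, Nppb was the gene still called higher, at 1.10 on gene length, and Gja1 the gene still called lower. With IL-6, 0 of 29 were called, against 1.77% of all genes called higher and 1.74% lower.

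Cytoskeletal and immediate early targets of SRF had the highest median of the lists of regulators and targets, 0.85 over 17 genes compared. Of these 6 were called higher with OSM and 0 lower, against 3.7% and 5.46% of all genes, and past counting error were 11 higher and 2 lower, against 33.1% and 33.4%. With the trend on gene length removed 6 were called, Zyx in place of Actb, and the median was 0.81. With that on transcript length removed 4 were called, Ier2, Junb, Egr1 and Zyx, and the median was 0.58. Fos, Fosb and Actb were then not called. Ier2, an early response gene, had 370 counts with vehicle, 329 with IL-6 and 1714 with OSM, at 1.96 (1.80 to 2.13), and 1.54 less the trend on gene length. The AP-1 subunits Fosb, Junb and Fos stood at 1.67, 1.58 and 1.48, and the zinc finger factor Egr1 at 1.41, and less the trend on gene length they were 1.80, 1.30, 1.20 and 1.40. Actb, the cytoplasmic actin, had 1726, 2006 and 4702 counts, at 1.20 (1.12 to 1.28), and 0.98 less the trend on gene length, inside 2-fold. Vcl, which links actin to the membrane, was among the genes not called, at -0.72, or -0.43 less the trend. With IL-6, 0 of 15 genes compared were called, against 1.77% of all genes called higher and 1.74% lower.

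**Figure D5:**
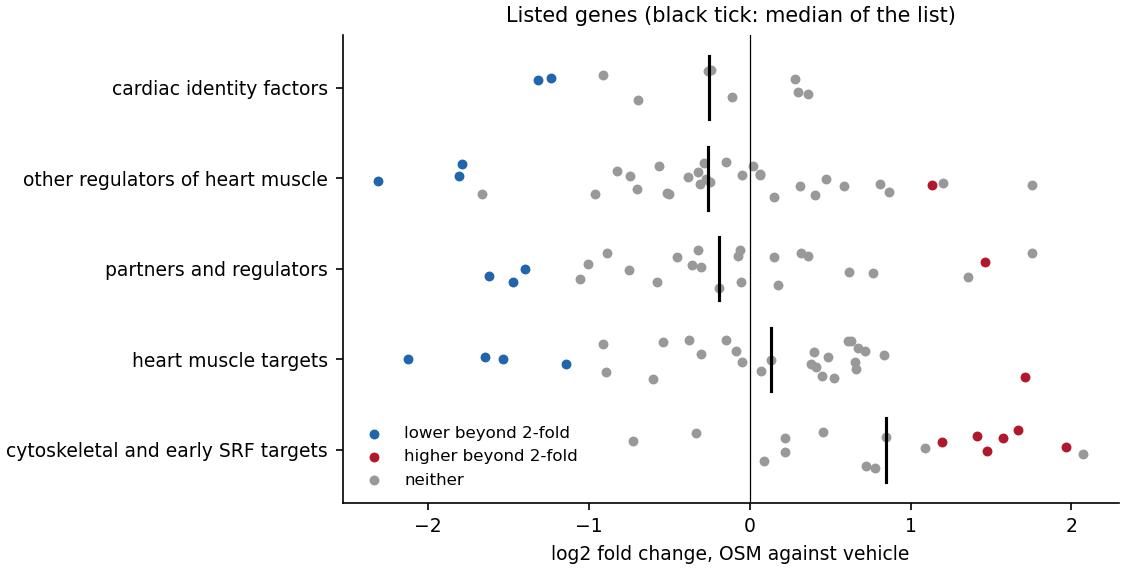
Log2 fold change between OSM and vehicle of each listed gene that was compared and had counts in both libraries, 1 row per list, coloured by whether its whole interval lay beyond 2-fold, with a black tick at the median of the list. The ticks lie at -0.25 for the factors and 0.85 for the cytoskeletal and early SRF targets.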

How the data were processed

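RNAseq was done on 3 libraries of pooled ACM RNA, 1 each for vehicle, IL-6 and OSM, grouped by their labels. The submitters' processing notes name fastp, HISAT2 2.2.1, featureCounts 2.0.6 and edgeR 4.0.16 with GRCm39. The counts deposited by the authors are whole reads per gene without normalization, and the FPKM values deposited by the authors are the same counts divided by a gene length and 1 constant per library. No column was left unmatched (0).

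Counts were scaled by TMM (edgeR 4.0.16, R 4.3.3) for each pair of libraries over genes with at least 10 counts in the pair. Intervals are 95% Clopper-Pearson or, for levels, exact Poisson, from scipy 1.17.1. With 1 library per condition no P-value was computed. Lowess trends (fraction 0.3, statsmodels 0.14.6) were fitted over protein-coding genes with a mean of at least 100 counts. The floor was 3 counts per library, 0.120, 0.114 and 0.0975 CPM with vehicle, IL-6 and OSM. On simulated counts for OSM against vehicle (15534 genes), drawn with Poisson noise alone, the error the intervals assume, and with no spread between cultures, the rule called 200 of 200 changed and 0 unchanged genes, with 95.7% of intervals holding the true value. All planted changes were well beyond 2-fold and in well-counted genes, and the other genes had no change. These counts therefore followed from the design, and they say nothing about genes near 2-fold. Of 56748 gene identifiers 56017 were found in GENCODE M39, used for transcripts and overlaps.

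The factors and the 13 gene lists were chosen with earlier results of these data known. Named were every factor, overlapping genes with counts, paralogs with at least 1 FPKM in a library, and per list up to 5 called genes of largest fold. Where fewer than 3 of a list were called, the rule also took the 3 of highest FPKM with vehicle, of which not all are reported. Myocd, Vcl, Zyx, Esrra, Esrrb, Ppargc1b, Hdac4, Hdac5, Hdac9, Myl3, Tnni3 and Tnnc1 were named after their values were seen. No genes were named for likeness of pattern, because 3 libraries give 2 free ratios. The alternatives were other scalings (DESeq2 1.42.0 factors, total counts, FPKM, TMM over all libraries), no filter, other call rules, widened intervals and removal of a length trend.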

Additional observations from a re-analysis of the deposited data

How the results depend on the processing

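No paired analysis was possible because each condition has 1 library, and no replicate could be left out. With DESeq2 factors, the authors' FPKM, TMM over all 3 libraries or no filter, each of the 30 fold changes of the factors and the 15 counts and medians stayed the same within counting error or 1.5 times. With total counts, 26 of the 30 did, and 2 factors were lower by the call rule for OSM against IL-6. A point estimate beyond 2-fold also gave 2 there. A whole interval beyond 1.5-fold gave 4 lower in both OSM comparisons. The share of all genes was not computed for the alternatives of this section, so these counts stand without a background. With the trend on gene length removed, the median for OSM against vehicle was -0.11, and 0 factors were called lower in either OSM comparison. Past counting error, 1 factor was higher in each, and 5 were lower against vehicle and 8 against IL-6. The trend on transcript length, an alternative added after seeing the data, gave 0 called lower and 1 higher past counting error as well. It left 6 factors lower past counting error against vehicle and 9 against IL-6. Intervals widened for an assumed biological coefficient of variation of 0.2 left 0 factors called lower, 0 higher and 3 lower past counting error in each OSM comparison, and 0 in either direction for IL-6 against vehicle. In OSM against vehicle those 3 were Tbx20, Mef2a and Mef2c. Dividing by the longest annotated transcript kept the place of 2 of the 10 factors. The spread between cultures is not measured, and the causes of these shifts were not tested.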

Other observations

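The Iroquois factors, homeodomain proteins that pattern repolarization across the ventricular wall, were detected for 5 of 6 genes. Irx1 had 285 counts with vehicle, 297 with IL-6 and 593 with OSM. Its OSM to vehicle difference was 0.81 on the log2 scale (95% interval of the counts 0.60 to 1.02), and 0.58 less the trend on gene length. Irx2 had 303, 210 and 400 counts, at -0.63 (-0.89 to -0.37) with IL-6 and 0.15 with OSM. Irx3, Irx4 and Irx5 lay between 0.02 and 0.32 with OSM, and Irx6 had 0 counts in all 3 libraries.

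Meis1, a homeodomain factor linked to the arrest of cardiomyocyte division, had 778, 725 and 1385 counts with vehicle, IL-6 and OSM, at 0.58 (0.46 to 0.71) with OSM. Its gene is long, and less the trend on gene length the value was 1.03. Tead1, the main TEAD factor of the Hippo pathway here, had 3869, 4329 and 2598 counts, at -0.82 (-0.89 to -0.75) with OSM, and -0.19 less the trend. The epicardial marker Aldh1a2, an enzyme of retinoic acid synthesis, had 8, 14 and 58 counts, at 2.61 with OSM. These genes were chosen after their values were seen.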
